A study of Homo sapiens with 12 samples.

Results

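The genes described here are 38 genes of the long arm of chromosome 13 (13q), chosen because nearly all of them were lower in MDA-MB-231 cells carrying S134A-GR than in cells carrying wt-GR. They were matched by gene symbol in each of the 12 libraries, and all 38 were found among the 371 genes of the files that lie on chromosome 13 and the 19907 genes of the files in all. Since the difference between the lines chose them, that difference is given below as a description, and no test of it is used. MDA-MB-231 is a triple-negative breast cancer line, and S134A-GR is the glucocorticoid receptor (GR) in which a serine is replaced by alanine, knocked in on both alleles with CRISPR. The S134A-GR cells were clone #1, and the wt-GR cells were also a single clone, an unedited one from the same experiment. Genotype and any other difference between the 2 clones therefore cannot be told apart, and the number of DNA copies of chromosome 13 was not analysed here. Both lines were kept for 18 h in medium with 1% charcoal-stripped serum and then treated for 6 h with TGFβ1 at 10 ng/mL or with vehicle, and each of the 4 groups had 3 libraries. Nothing in the labels says that the 3 libraries of a group came from separate cultures, so their spread may be technical.

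Library totals, recovered from the step size of the normalized counts, ranged from 56362036 to 129832227 reads. The lowest belonged to wt-GR vehicle replicate 1. NR3C1, which encodes GR, had 11771 normalized counts (mean of wt-GR cells under vehicle) and 8815 (S134A-GR cells under vehicle), and its level says nothing on a single changed residue. VIM, CD44 and EGFR, which mark this mesenchymal line, had means of 468823, 51106 and 17928 normalized counts over the 12 libraries. ESR1 and CDH1 were near the detection floor with means of 3.26 and 6.17, as were PTPRC of leukocytes and DCN of fibroblasts with 3.95 and 1.13, whereas the epithelial gene EPCAM had 690.0, the endothelial gene PECAM1 1097 and the fibroblast gene COL1A2 32.0.

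These genes have no pathway in common. They share an arm of a chromosome, from ZMYM2 near the centromere to MBNL2 towards the far end. The best known is RB1, whose protein binds E2F transcription factors and holds back entry into S phase until cyclin-dependent kinases phosphorylate it. BRCA2 acts in the repair of DNA breaks by recombination, FOXO1 is a transcription factor restrained by AKT, and HMGB1 is an abundant chromatin protein that also acts as an alarm signal outside cells. Other members act in chromatin and transcription, DNA replication, RNA processing, ubiquitin and related systems, membrane traffic, the cytoskeleton, translation and metabolism.

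The promoters of 4 members are shown first, since they belong to the members at the ends of the range of differences between the lines and to 2 pairs of members that start back to back. RefSeq (GRCh38.p14) had a promoter entry for 35 of the 38 members, and the entry of 29 lay within 500 bases of the gene start in GENCODE v44. SAP18, KBTBD7 and USPL1 were not matched. Each sequence runs 5′ to 3′ on the gene's own strand, with 250 bases before the start in lower case and the first 50 transcribed bases in capitals.
MTMR6, chr13:25287439-25287738, minus strand, the member with the largest difference: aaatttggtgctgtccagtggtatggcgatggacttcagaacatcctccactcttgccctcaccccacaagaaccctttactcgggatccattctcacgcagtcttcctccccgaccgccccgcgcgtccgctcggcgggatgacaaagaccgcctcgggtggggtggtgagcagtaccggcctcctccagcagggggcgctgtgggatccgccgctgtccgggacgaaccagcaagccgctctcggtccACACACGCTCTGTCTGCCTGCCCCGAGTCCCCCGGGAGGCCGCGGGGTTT
DIAPH3, chr13:60163879-60164178, minus strand, the detected member with the smallest difference: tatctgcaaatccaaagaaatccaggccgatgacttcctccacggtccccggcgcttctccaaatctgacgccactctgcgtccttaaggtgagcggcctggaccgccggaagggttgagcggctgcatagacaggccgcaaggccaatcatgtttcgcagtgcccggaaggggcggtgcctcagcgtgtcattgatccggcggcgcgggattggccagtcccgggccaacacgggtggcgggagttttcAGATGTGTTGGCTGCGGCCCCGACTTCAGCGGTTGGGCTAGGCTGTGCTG
HMGB1, chr13:30617548-30617847, minus strand, which also holds the start of USPL1 on the other strand at base 155: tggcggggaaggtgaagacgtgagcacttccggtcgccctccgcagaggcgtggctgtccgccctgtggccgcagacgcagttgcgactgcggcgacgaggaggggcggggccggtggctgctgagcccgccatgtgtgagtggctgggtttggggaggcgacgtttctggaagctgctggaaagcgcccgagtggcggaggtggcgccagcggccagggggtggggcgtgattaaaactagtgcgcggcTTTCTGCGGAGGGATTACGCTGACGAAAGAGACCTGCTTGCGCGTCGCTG
UCHL3, chr13:75549252-75549551, plus strand, which also holds the start of COMMD6 on the other strand at base 188: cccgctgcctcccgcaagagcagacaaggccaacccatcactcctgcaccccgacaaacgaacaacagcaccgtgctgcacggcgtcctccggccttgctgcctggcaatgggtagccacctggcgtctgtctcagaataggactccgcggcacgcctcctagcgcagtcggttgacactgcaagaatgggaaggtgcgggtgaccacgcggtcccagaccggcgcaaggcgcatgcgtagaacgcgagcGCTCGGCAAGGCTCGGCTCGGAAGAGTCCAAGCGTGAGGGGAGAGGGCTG
These 4 windows had a GC content of 65.3%, 62.7%, 67.7% and 65.3% in that order. Over the 29 members the median was 65.3%, with a range of 45.0% to 76.3%, beside a median of 58.7% over all 35116 promoter entries. The members had 13 to 45 CG dinucleotides in the 300 bases, with a median of 26, beside 14 over all entries. Motifs were searched on both strands. The half-site of a GR element, AGAACA, was present in 4 of the 29 members (13.8%), MTMR6 among them, and in 14.8% of all promoters. The palindrome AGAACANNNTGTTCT, which contains that half-site, was in none of the 29 and in 0.00285% of all promoters. CCGGAAG, a core recognised by ETS factors such as the member ELF1, was in 4 of 29 members (13.8%), HMGB1 and DIAPH3 among them, and in 10.3% of all promoters. The E2F-type sites TTTGGCGC or TTTCGCGC were in 2 of 29 (6.90%) and 1.15%, and CCAAT was in 13 of 29 (44.8%) and 34.6%. The members gave 1 entry each, within 500 bases of the gene start. All entries were taken without regard to that distance or to expression, so these comparisons are not like for like. A match of letters is not a bound site.

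Of the 38 members, 37 had a mean above the floor of 3 reads, which is at most 4.89 normalized counts in any library. LPAR6, a receptor for lysophosphatidic acid that lies inside the span of RB1 on the other strand, was listed at 0 to 4 normalized counts, and its mean was under the floor. All 37 detected members had a fold change below 0 in S134A-GR against wt-GR cells under both treatments. Under vehicle the median log2 fold change was −0.58, or 66.8% of the wt-GR level, with a range from −0.87 to −0.16. Under TGFβ1 the median was −0.48, or 71.7% of the wt-GR level, with a range from −0.82 to −0.03. With LPAR6 included, the medians over 38 members were −0.58 and −0.48. All fold changes are on the scale of log2(normalized count + 1), fitted with limma, and the standard errors of the vehicle differences ran from 0.03 to 0.17 in the 37 detected members.

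Under vehicle 37 of 38 members had a false discovery rate (FDR) under 0.05 and a lower level in S134A-GR cells, against 26.5% of the 18579 genes tested. Under TGFβ1 it was 34 of 38, against 25.7%. Among genes with a mean of at least 100 normalized counts, the shares of all genes were 34.4% and 33.1%. Since the members were picked for this difference, nothing is read from these counts. All 3 S134A-GR libraries were below all 3 wt-GR libraries in 36 members under vehicle (29.1% of all genes) and in 35 under TGFβ1 (28.6%), and in 34 under both. The exceptions were LPAR6 in both comparisons, MYCBP2 under vehicle, and KATNAL1 and DIAPH3 under TGFβ1.

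**Figure D1:**
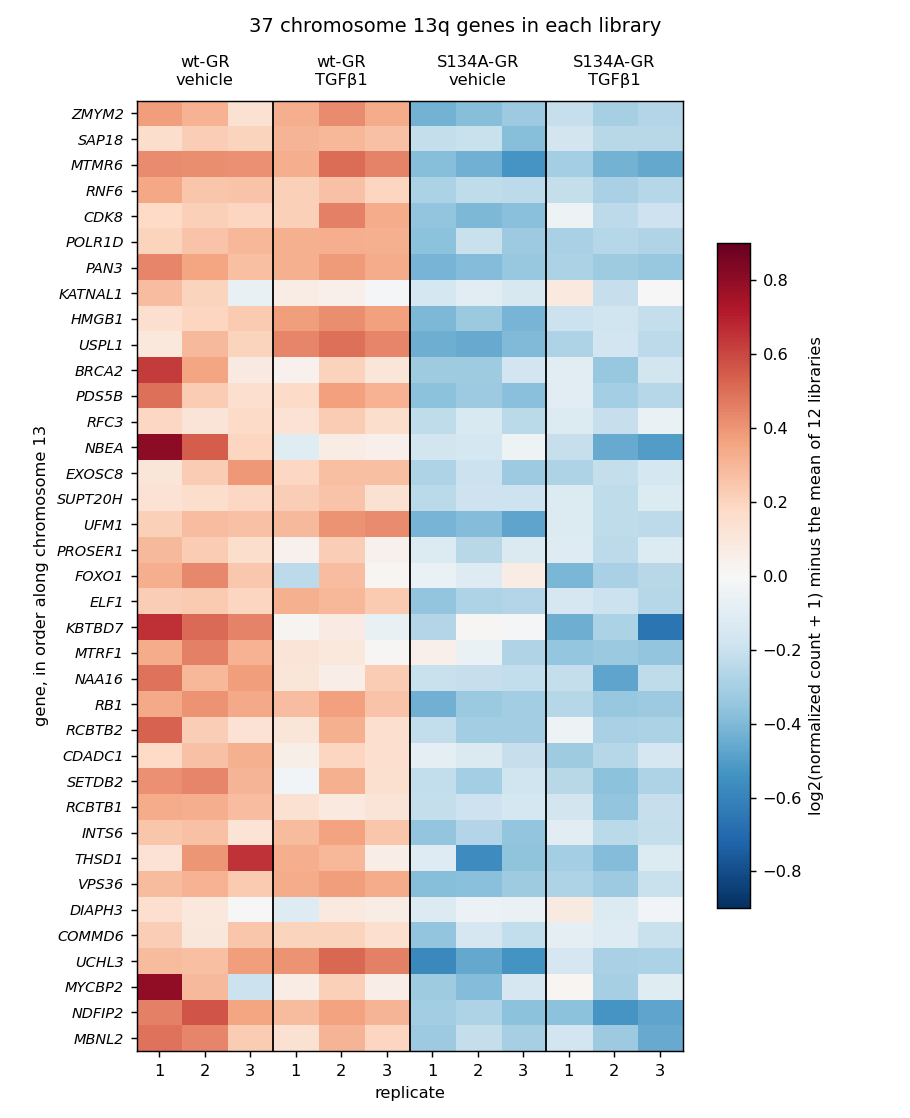
Heat map of the 37 detected members (rows, in order along chromosome 13) in the 12 libraries (columns, by group and replicate). Colour gives log2(normalized count + 1) minus the gene's mean over the 12 libraries, and nearly all wt-GR cells of the map are red and nearly all S134A-GR cells blue, with pale rows at KATNAL1 and DIAPH3.

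Each library can be summed up by the median of its members' deviations from their means over the 12 libraries. In wt-GR cells this was 0.29, 0.28 and 0.24 under vehicle and 0.20, 0.30 and 0.19 under TGFβ1. In S134A-GR cells it was −0.31, −0.27 and −0.30 under vehicle and −0.20, −0.29 and −0.24 under TGFβ1. The lowest wt-GR library thus lay 0.39 above the highest S134A-GR library on the log2 scale, and the within-group SD was 0.04. The same median over genes off chromosome 13 stayed between −0.01 and 0.01 in all 12 libraries, which the division by size factors largely fixes. Over the other chromosome 13 genes with a mean of at least 100 it separated the lines as in the members. It ran from 0.21 to 0.29 in wt-GR libraries and from −0.28 to −0.22 in S134A-GR libraries. Chromosome 13 as a whole gave 1.17% to 1.24% of the normalized counts in wt-GR libraries and 0.83% to 0.88% in S134A-GR libraries.

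The shift was narrow across genes that differ widely in level, though choosing the members by their difference may itself have narrowed it. Mean levels of detected members spanned 129 to 35443 normalized counts, and levels per kb of exon spanned 17.2 for NBEA to 4605 for HMGB1. The mean of the vehicle and TGFβ1 differences had an SD of 0.15 over 37 members around a median of −0.51. It was within 0.1 of that median in 19 members, within 0.2 in 32 and within 0.3 in 34. The 95% interval of a member covered the median of its comparison in 23 of 37 members under vehicle and in 20 under TGFβ1, so many members departed from the median by more than their own error. Across the 37 members the departure had a Spearman's rho of −0.04 with mean level, −0.09 with level per kb, −0.004 with exon length and 0.06 with position. Exon length had a Pearson's r of 0.53 and a Spearman's rho of 0.19 with the residual SD between replicates. With the difference of the TGFβ1 responses between the lines, the 2 values for exon length were 0.39 and 0.07. These are descriptions across genes of the same libraries, which are not independent.

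**Figure D2:**
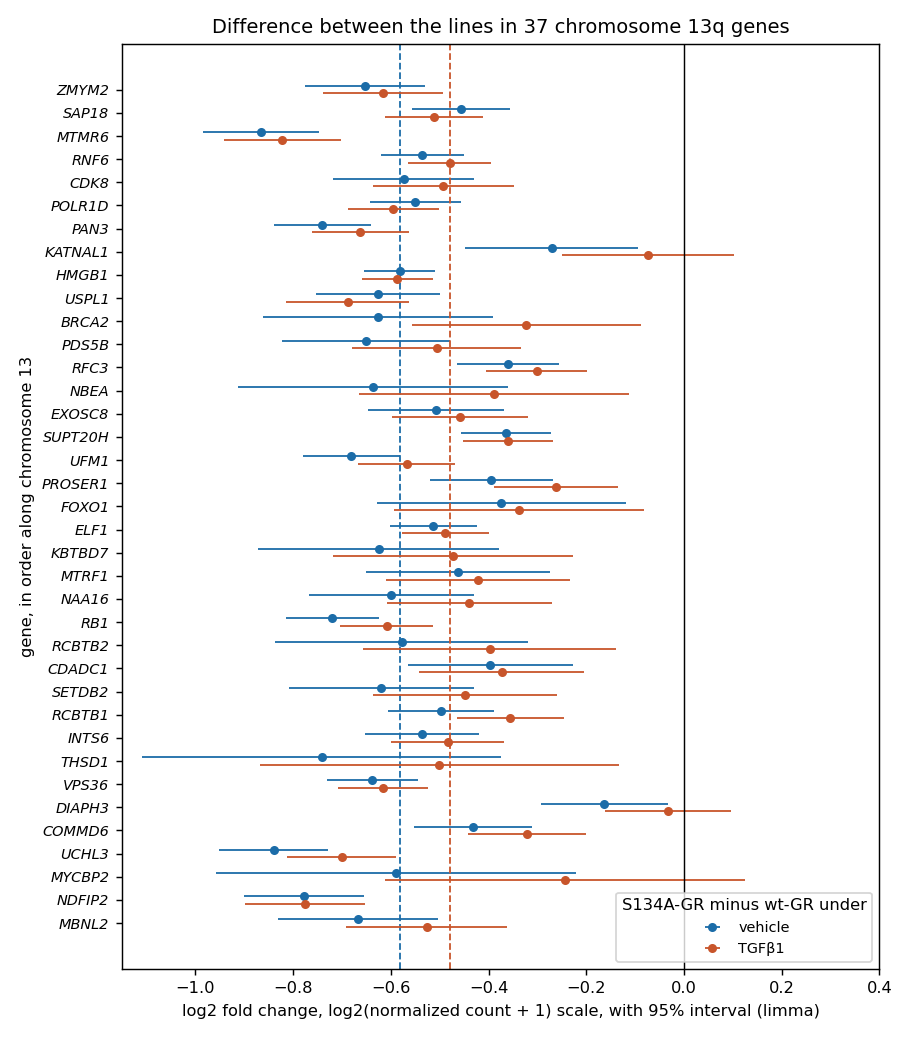
Difference (S134A-GR minus wt-GR cells, log2) for each detected member under vehicle (blue) and TGFβ1 (orange), with the 95% interval of limma, and dashed lines at the medians of −0.58 and −0.48. MTMR6, UCHL3 and NDFIP2 lie to the left of both medians, KATNAL1 and DIAPH3 to the right.

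Among the 11 members that act in chromatin and transcription, the median difference under vehicle was −0.55, with a range of −0.65 to −0.36. Under vehicle HMGB1 had 38537, 39642 and 40867 normalized counts in wt-GR cells against 26139, 27485 and 25925 in S134A-GR cells, a difference of −0.58 ± 0.03 (SE, n = 3 per group). Under TGFβ1 it had 44862, 46409 and 44835 against 30263, 30529 and 29828, or −0.59. The groups did not overlap, and HMGB1 sat on the members' vehicle median with the smallest error of the set, although the gene has many processed copies elsewhere in the genome that could share reads with it. USPL1, a SUMO protease whose start lies 96 bases from that of HMGB1, had 1277, 1468 and 1378 against 882, 876 and 910 under vehicle, or −0.63 ± 0.06. ZMYM2, a zinc-finger protein of corepressor complexes, differed by −0.65 under vehicle and −0.62 under TGFβ1. CDK8, the kinase of the Mediator complex, had 1281, 1316 and 1297 against 887, 856 and 872 under vehicle, or −0.57. ELF1, an ETS factor, POLR1D, a subunit shared by RNA polymerases I and III, and SETDB2, a histone methyltransferase relative, differed by −0.51, −0.55 and −0.62. The smallest differences of this group were in SUPT20H, a subunit of the SAGA coactivator, at −0.36, FOXO1 at −0.37 and PROSER1 at −0.39. FOXO1 was low, with 474, 510 and 448 against 362, 348 and 395 under vehicle. Its difference under TGFβ1 was −0.34 and became −0.21 without wt-GR TGFβ1 replicate 2. SAP18, part of histone deacetylase and splicing complexes, differed by −0.46.

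The 4 members of cell cycle, replication and repair had a median of −0.64 under vehicle. Under vehicle RB1 had 7287, 7599 and 7266 normalized counts in wt-GR cells against 4259, 4567 and 4633 in S134A-GR cells, a log2 difference of −0.72 ± 0.04. Under TGFβ1 it had 6959, 7425 and 6879 against 4814, 4542 and 4582, or −0.61 ± 0.04. The lowest wt-GR library was well above the highest S134A-GR library, and RB1 was lower than the members' median in both comparisons. BRCA2 was more variable, with 2172, 1795 and 1486 against 1124, 1124 and 1244 under vehicle and 1444, 1621 and 1510 against 1306, 1107 and 1250 under TGFβ1. Its log2 fold changes were −0.63 ± 0.11 and −0.32 ± 0.11. PDS5B, which regulates the release of cohesin from chromosomes, differed by −0.65 and −0.51. RFC3, a subunit of the clamp loader that places PCNA on DNA, differed less, by −0.36 and −0.30, with 3546, 3376 and 3505 against 2658, 2834 and 2633 under vehicle.

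The 4 members of RNA processing and decay had a median of −0.60 under vehicle. PAN3, the partner of the poly(A) nuclease PAN2, had 4414, 4157 and 3930 against 2428, 2475 and 2571, or −0.74 ± 0.05. MBNL2, a splicing regulator of the muscleblind family, had 5864, 5657 and 4885 against 3318, 3597 and 3391, or −0.67 ± 0.08. INTS6 of the Integrator complex differed by −0.54, and EXOSC8 of the RNA exosome by −0.51. Exons of EXOSC8 and SUPT20H overlap on opposite strands, and the strand setting of the counting is not given in the sources used here, so the reads of these 2 genes may be shared.

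The 6 members of ubiquitin and ubiquitin-like systems had the lowest median under vehicle, −0.65. UCHL3, a ubiquitin hydrolase, had 3733, 3703 and 3985 normalized counts in wt-GR cells against 2050, 2223 and 2107 in S134A-GR cells with vehicle, a log2 difference of −0.84 ± 0.05. NDFIP2, an adaptor of NEDD4-family ligases, had 4116, 4460 and 3847 against 2425, 2479 and 2327, or −0.78 ± 0.06, and the same −0.78 under TGFβ1. Both were among the 3 lowest members. Of the exon bases of UCHL3, 37.5% also lie in exons of other genes that do not code for protein, the largest share of any member. That share was 22.7% in FOXO1 and 11.6% in RNF6, and reads of these genes may be shared. UFM1, the modifier of the ufmylation system, differed by −0.68 and −0.57, the ligase RNF6 by −0.54 and −0.48, and the CUL3 adaptor KBTBD7 by −0.62 and −0.47. MYCBP2 is a very large ligase with a wide spread between replicates. Under vehicle it had 11807, 8308 and 5933 in wt-GR cells against 5439, 5157 and 6094, so that the groups overlapped. NBEA (1092, 912 and 714), BRCA2 and PDS5B also fell from wt-GR vehicle replicate 1 to 3. EXOSC8 (3078, 3353 and 3755) and POLR1D rose instead. Of all library pairs within a group, wt-GR vehicle replicates 1 and 3 were the least alike. The source of this spread was not tested, and it limits the vehicle values of MYCBP2. Its difference of −0.59 ± 0.17 became −0.34 without wt-GR vehicle replicate 1, the library with the lowest total, whose part in the value was not tested otherwise. Under TGFβ1 the difference was −0.24 ± 0.17.

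The 7 detected members of membrane traffic, signalling and lipid turnover had a median of −0.64 under vehicle. MTMR6, a phosphoinositide phosphatase, was the lowest of all members, with 4282, 4271 and 4247 normalized counts in the vehicle-treated wt-GR cells and 2449, 2369 and 2213 in S134A-GR cells, or −0.87 ± 0.06. Under TGFβ1 it had 4013, 4533 and 4358 against 2591, 2382 and 2323, or −0.82. VPS36 of the ESCRT-II sorting complex differed by −0.64 and −0.62. THSD1 was low, with 137, 165 and 197 against 115, 84 and 97 under vehicle, or −0.74 ± 0.17, and its exons overlap those of VPS36 on the same strand. NBEA, a BEACH-domain protein of membrane traffic, differed by −0.64 and −0.39, RCBTB2 by −0.58 and −0.40, and RCBTB1 by −0.50 and −0.36. COMMD6, of the COMMD family that acts in endosomal recycling, differed by −0.43 and −0.32. Its start lies 44 bases from that of UCHL3, so these neighbours differed by different amounts, −0.38 for COMMD6 and −0.77 for UCHL3 as the mean of both treatments. The other back-to-back pair, HMGB1 and USPL1, had means of −0.58 and −0.66.

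The last group, 5 members of the cytoskeleton, translation and metabolism, held the smallest differences, with a median of −0.40 under vehicle. DIAPH3, a formin that nucleates actin filaments, had 7120, 6851 and 6437 normalized counts in the vehicle-treated wt-GR cells and 5878, 6189 and 6151 in S134A-GR cells, or −0.16 ± 0.06. Under TGFβ1 it had 5921, 6802 and 6700 against 6772, 5896 and 6313, or −0.03 ± 0.06, and the groups overlapped. KATNAL1, a katanin-like protein that severs microtubules, had 3330, 3166 and 2632 against 2471, 2563 and 2494 under vehicle, or −0.27 ± 0.08. Under TGFβ1 it had 2878, 2847 and 2735 against 2925, 2385 and 2755, or −0.07 ± 0.08. The differences of these 2 genes under TGFβ1 changed sign when 1 TGFβ1 library was left out, to 0.02 for DIAPH3 and 0.01 for KATNAL1 without S134A-GR TGFβ1 replicate 2, and to 0.004 for DIAPH3 without wt-GR TGFβ1 replicate 2. NAA16, an N-terminal acetyltransferase subunit, MTRF1, a mitochondrial release factor, and CDADC1, a deaminase relative, differed by −0.60, −0.46 and −0.40 under vehicle. By a limit of 0.5 on the log2 scale around the members' median only LPAR6 departed, and it is below the floor. DIAPH3, at a mean of −0.10, and KATNAL1, at −0.17, were just inside that limit, and MTMR6 at −0.84 and NDFIP2 at −0.78 were the farthest on the other side.

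The other genes of the chromosome were compared to see where the members differ from them. Among the 187 other chromosome 13 genes with a mean of at least 100 normalized counts, the median log2 fold change was −0.53 under vehicle and −0.48 under TGFβ1, and 173 were lower in S134A-GR cells on the mean of both. Their spread was wider than that of the members, with an interquartile range of 0.40 against 0.19 for the mean of both treatments, which was not tested because the members were chosen on these values. Over all 18579 genes tested the medians were 0.02 and 0.01. In bins of 10 Mb that held at least 20 genes, the median of the mean difference was −0.55 at 20 to 30 Mb, −0.43 at 30 to 40 Mb, −0.55 at 40 to 50 Mb, −0.55 at 70 to 80 Mb and −0.32 at 110 to 120 Mb. In bins of 17 genes it was −0.51 at 50 to 60 Mb, −0.65 at 90 to 100 Mb and −0.38 at 100 to 110 Mb. The bins from 100 to 120 Mb hold no member.

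**Figure D3:**
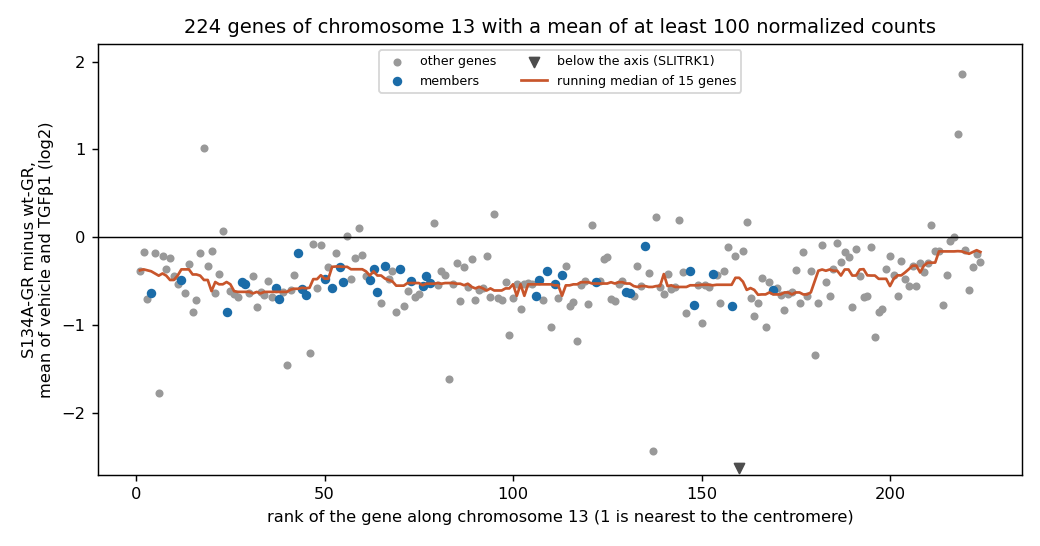
Mean of the vehicle and TGFβ1 differences (S134A-GR minus wt-GR cells, log2) for 224 chromosome 13 genes with a mean of at least 100 normalized counts, by rank along the chromosome, with members in blue and a running median of 15 genes as a line. The line stays below 0 along the whole chromosome and comes nearest to 0 at the far end, and SLITRK1 lies below the axis.

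Some genes of the chromosome did not follow the shift. The 8 with the highest values, by a rule on rank, were LINC00452, GAS6-AS2, TNFRSF19, TPT1-AS1, PCDH9, KLF5, MIR17HG and RGCC, with means of both treatments from 0.16 to 1.86. LINC00452 had 31.0 to 60.0 normalized counts in the vehicle-treated wt-GR cells and 155.0 to 197.7 in S134A-GR cells. TNFRSF19, a receptor of the TNF family, had 79.3 to 85.3 against 151.4 to 186.6, a log2 fold change of 0.99 ± 0.14. KLF5, a transcription factor of epithelial cells, had 1112 to 1196 against 1202 to 1284, or 0.10 ± 0.07. At the other end were SLITRK1, PCDH20, GJB2, EPSTI1, SLC46A3, GGACT, ALOX5AP and DLEU2. SLITRK1 had 585.4 to 723.5 normalized counts in the vehicle-treated wt-GR cells and 0 in all 6 S134A-GR libraries. Against a floor of 3 reads in a library this was at least 213-fold lower under vehicle and at least 184-fold lower under TGFβ1. GJB2, the gap-junction protein connexin 26, differed by −1.70 under vehicle. No detected member lay as far from the chromosome's median as these genes. Since these genes were taken as the extremes and the members were chosen on the same difference, nothing is read from this.

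Chromosome 13 had the lowest median difference of the 23 chromosomes with genes at that level. On the mean of both treatments it was −0.51 for chromosome 13 (224 genes), −0.38 for chromosome 11 (678 genes), −0.29 for chromosome 2 (820 genes) and 0.27 for chromosome 9, the highest. On chromosome 13, 93.8% of genes were lower in S134A-GR cells, against 84.2% on chromosome 11.

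**Figure D4:**
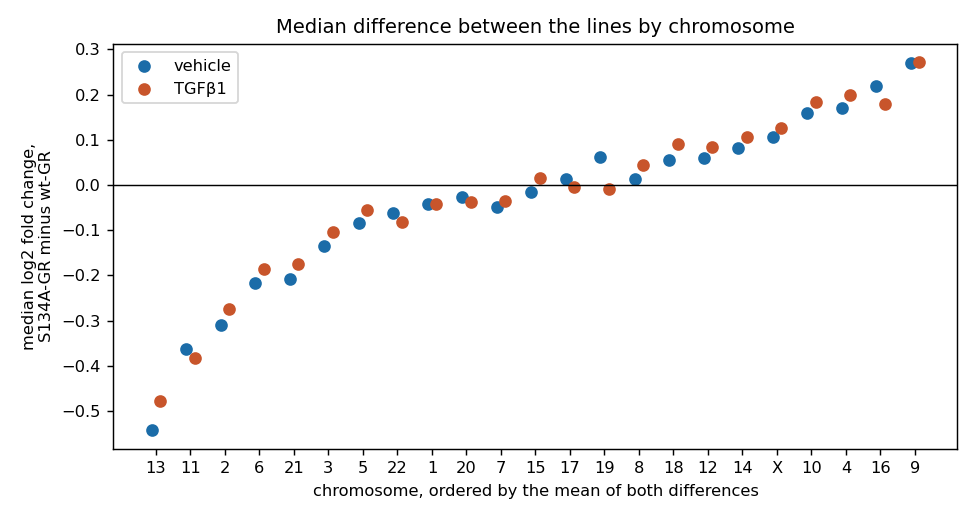
Median difference (S134A-GR minus wt-GR cells, log2) for the genes of each chromosome with a mean of at least 100 normalized counts, under vehicle (blue) and TGFβ1 (orange). Chromosome 13 is lowest at −0.54 and −0.48 and chromosome 9 highest.

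The response to TGFβ1 within each line was tested over all genes. It was not itself used to choose the members, but it is taken against the vehicle libraries that were, so the direction of the members' responses is not independent of the choice. In wt-GR cells 7 of 38 members passed an FDR under 0.05 (21.0% of all genes did), 2 higher (11.2% of all genes) and 5 lower (9.82%). In S134A-GR cells 6 members passed (18.7%), 5 higher (10.0%) and 1 lower (8.69%). Without wt-GR vehicle replicate 3 the first count was 12, and without S134A-GR vehicle replicate 2 or S134A-GR TGFβ1 replicate 3 the second was 3. Among genes with a mean of at least 100 the shares in either direction were 28.8% and 26.0%. HMGB1 rose in both lines, by 0.19 ± 0.03 in wt-GR cells (limma, adjusted p = 0.00083) and 0.19 ± 0.03 in S134A-GR cells (adjusted p = 0.00117). USPL1, its back-to-back neighbour, also rose in both, by 0.26 and 0.20. KBTBD7 fell in both lines, by 0.53 on the log2 scale in wt-GR cells, from 543, 490 and 469 to 350, 362 and 329 normalized counts, and by 0.37 in S134A-GR cells, from 286, 347 and 342 to 254, 281 and 217. NBEA fell by 0.51 in wt-GR cells, from a widely spread 1092, 912 and 714 to 579, 656 and 647 normalized counts. MTRF1 fell by 0.29, NAA16 by 0.25 and RCBTB1 by 0.20 in the same cells. In S134A-GR cells, where none of these 4 passed, the values were −0.26, −0.25, −0.09 and −0.06. UCHL3 rose by 0.28, UFM1 by 0.23 and CDK8 by 0.22 in S134A-GR cells, of which CDK8 passed in only 16 of the 23 settings tried. In wt-GR cells, where none of these 3 passed, the values were 0.15, 0.12 and 0.14. RB1 did not pass in either line, at −0.06 and 0.05, and neither did FOXO1, at −0.32 and −0.28.

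The difference of the responses between the lines was tested directly. With limma, none of the 38 members passed an FDR under 0.05 (0.414% of all genes did) and 0 had an unadjusted p under 0.05 (9.30% of all genes did). The counts at that FDR were also 0 with edgeR and with DESeq2 on the recovered reads. The value, S134A-GR minus wt-GR, was positive in 34 of 38 members with a median of 0.10, and over the 37 detected members the median was 0.08. The median was 0.03 over the other chromosome 13 genes at a mean of at least 100 and −0.003 over all genes tested. The difference under TGFβ1 was accordingly smaller in size than under vehicle in 33 of the 37 detected members. The vehicle libraries that helped to choose the members also enter this value, so neither its sign nor these counts are independent of the choice. The largest values were in MYCBP2, at 0.35 ± 0.24, and BRCA2, at 0.30 ± 0.15, both of which were highest in wt-GR vehicle replicate 1.

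**Figure D5:**
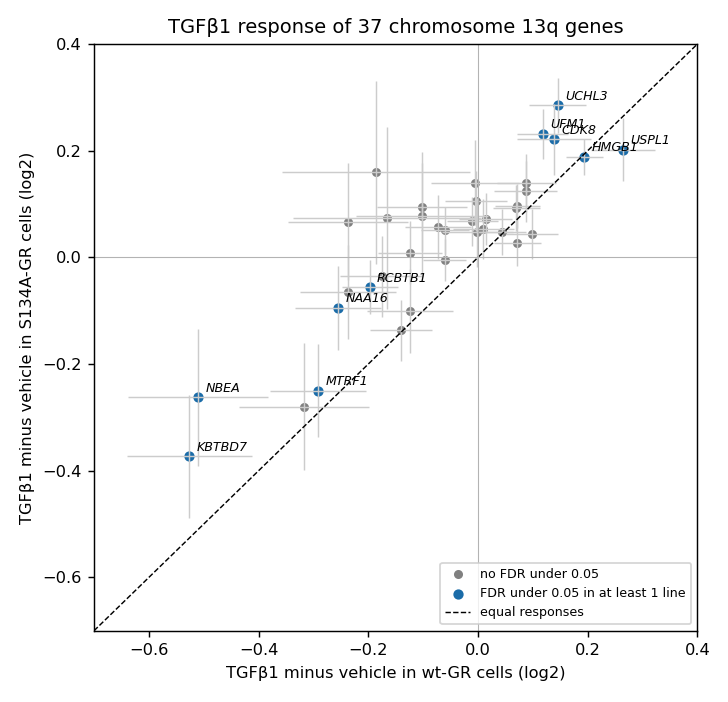
TGFβ1 response of each detected member in wt-GR cells (horizontal axis) and S134A-GR cells (vertical axis), as log2 fold changes with SE bars, with the members that passed an FDR under 0.05 in at least 1 line in blue and named. Most points lie above the dashed line of equal responses, and KBTBD7 and NBEA are lowest in wt-GR cells.

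Paralogues and functional partners of the members on other chromosomes were examined as lists, to see whether related genes off the chromosome moved too. Of 36 tested paralogues, 8 were higher and 12 lower with S134A-GR under vehicle, and 12 higher and 8 lower under TGFβ1, at an FDR under 0.05 in limma (51.5% and 48.8% of all genes passed in either direction, and 65.1% and 62.2% of genes with a mean of at least 100). Their medians were −0.07 and 0.02. Of the 36, 8 were lower under both treatments and 7 higher under both. Those 8 were MBNL1 (−0.47 under vehicle and −0.27 under TGFβ1), ZMYM1 (−0.46 and −0.34), ZMYM4 (−0.40 and −0.37), MTRF1L (−0.37 and −0.34), RFC2 (−0.30 and −0.26), KATNA1 (−0.23 and −0.18), NDFIP1 (−0.13 and −0.17) and CDK19. Among the 7 higher were RFC5 (0.34 and 0.32), INTS6L (0.29 and 0.23) and SETDB1 (0.17 and 0.13). Of 62 tested partners, 21 were higher and 19 lower under vehicle, and 22 higher and 18 lower under TGFβ1, with medians of −0.03 and 0.02. Both lists thus had calls in both directions, in similar numbers. The mean of both differences was below that of the member itself in 3 of the 36 paralogues and 2 of the 62 partners. Since the members were chosen for low values, few genes could lie below them, and nothing is read from these counts. LPAR1 and LPAR3 are among the 3 only because their member LPAR6, which is under the floor, was at 0.63.

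Around RB1, its relative RBL2 was higher in S134A-GR cells, by 0.19 ± 0.04 under vehicle (limma, adjusted p = 0.00145), and RBL1 was at −0.12 ± 0.06, which did not pass. CCND1 (cyclin D1) and CDK6, which act upstream of the RB1 protein, were lower, at −0.55 ± 0.04 and −0.79 ± 0.10, and CDK4 was higher by 0.19 ± 0.03. E2F1 was higher, by 0.21, and E2F3 lower, at −0.37. CDK2 was higher by 0.36 and CCNE1 by 0.22 under vehicle, and E2F2 was at 0.07, which did not pass. CCND1 lies on chromosome 11, whose median was itself −0.38. E2F3 lies on chromosome 6, with a median of −0.20, and CDK6 on chromosome 7, with −0.03. Of the genes that were higher, RBL2 lies on chromosome 16, whose median was 0.20, near the value of RBL2 itself. CDK2 and CDK4 lie on chromosome 12, with a median of 0.08, CCNE1 on chromosome 19, with 0.03, and E2F1 on chromosome 20, with −0.04.

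Around the cohesin regulator PDS5B, its paralogue PDS5A was at 0.09 under vehicle, which did not pass, and 0.24 under TGFβ1, which did. The cohesin subunit STAG1 was lower, at −0.63 ± 0.05 under vehicle. STAG1 lies on chromosome 3, whose median was −0.12. Around BRCA2, BARD1 was lower, at −0.52 ± 0.07, and XRCC3 was higher by 0.47. BARD1 lies on chromosome 2, whose median was −0.29. PAN2, the catalytic partner of PAN3, was higher by 0.81 ± 0.08 under vehicle and 0.66 under TGFβ1 while PAN3 was lower. COMMD4 and CCDC22, which act with COMMD6, were higher by 0.50 and 0.51. CUL3, the scaffold that binds KBTBD7, was lower, at −0.60 ± 0.05. CDK19, the paralogue of CDK8, was lower, at −0.36, and CCNC, the cyclin of both kinases, at −0.48. CDK19 and CCNC lie on chromosome 6, whose median was −0.20. HMGB2 was higher by 0.09 in S134A-GR cells beside −0.58 for HMGB1, and its level was close to that of HMGB1, with means of 35621 and 35443 normalized counts without regard to length. Among the formins, DIAPH1 was at −0.09 and DIAPH2 at −0.05, neither past the test. LRBA, the paralogue of NBEA, was higher by 0.41 and 0.58, and KATNAL2, at a mean of only 24.7 normalized counts, was at 0.38, which did not pass, and 1.35, which did. KATNAL2 lost that call without wt-GR TGFβ1 replicate 1 (0.79) or S134A-GR TGFβ1 replicate 3 (1.14). The receptors LPAR1 and LPAR2, relatives of the undetected LPAR6, were at 0.03 (not past the test) and 1.09 under vehicle and were higher by 0.74 and 0.88 under TGFβ1. PDS5A, HMGB2 and LRBA lie on chromosome 4, whose median was 0.18, and LPAR1 on chromosome 9, with 0.27. XRCC3 lies on chromosome 14, with a median of 0.10, and LPAR2 on chromosome 19, with 0.03.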

How the data were processed

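RNA was measured in 12 libraries (TruSeq, paired-end reads of 75 bases). The authors checked reads with FastQC 0.11.7, trimmed with Trimmomatic, used HISAT2 to align to hg38, counted with featureCounts and divided by DESeq2 1.22.2 size factors. The deposited signal is these normalized counts, 1 value per gene symbol and library. Annotation, strand setting and the versions of HISAT2 and featureCounts are not given in the sources used here. The values of a library came in whole multiples (100% within 0.001) of the worth of 1 read, which gave back the reads. Intervals and floors cover counting error only where they come from reads.

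Using limma 3.58.1 (R 4.3.3), log2(value + 1) was modelled over 4 group means with an empirical Bayes trend, for 18579 genes with at least 10 reads summed, with Benjamini-Hochberg adjustment over all of them. The scale understates changes of low genes. Symbols were placed on GRCh38 with GENCODE v44 (17687 by symbol, 1118 by an older symbol, 1102 of 19907 unmatched). On simulated data with 200 genes changed 1.5-fold between the lines under vehicle, 84% were recovered, and 100% at 2-fold. The changed genes had a mean of at least 100, all genes had the same dispersion, and far fewer genes changed than were called here. These rates therefore do not carry over to low genes or to members with a wide spread, such as MYCBP2.

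The members, the lists of paralogues and partners, and the roles were chosen with earlier results of these data known. All members could be named. Named non-members were the 8 lowest and 8 highest of the chromosome by mean line difference at a mean of at least 100, and those of the lists past the test whose change was 0.5 or more on the log2 scale. The rule also took in relatives of members described, of which not all are named. E2F1, E2F2, E2F3, CDK2, CDK4, CCNE1, XRCC3 and CCNC are outside that rule, and their values had been seen before they were chosen. Alternatives were pseudocounts of 0.5 and 16, filterByExpr, no filter beyond 1 read, centring on genes off chromosome 13, a replicate block, a fit of only the groups compared, edgeR 4.0.16 with TMM and RLE scaling and DESeq2 1.42.0 on the recovered reads, and each library left out in turn.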

Additional observations from a re-analysis of the deposited data

How the results depend on the processing

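The members' median difference under vehicle ranged from −0.59 to −0.53 when 1 library was left out, with −0.53 without wt-GR vehicle replicate 1, and that under TGFβ1 from −0.49 to −0.45. Members lower at the threshold numbered 34 to 37 and 29 to 34. Members past the threshold in the TGFβ1 response numbered 5 to 12 for wt-GR, with 12 without wt-GR vehicle replicate 3, and 3 to 6 for S134A-GR, with 3 without S134A-GR vehicle replicate 2 or S134A-GR TGFβ1 replicate 3. The cause was not tested beyond the smaller number of libraries. For the difference of responses the count was 0 throughout. Paralogues and partners past the threshold numbered 50 to 61 under vehicle and 50 to 63 under TGFβ1. Among differences that passed the threshold none changed sign, whereas those of DIAPH3 and KATNAL1 under TGFβ1, which were near 0, changed sign without S134A-GR TGFβ1 replicate 2 (0.02 and 0.01), and that of DIAPH3 also without wt-GR TGFβ1 replicate 2 (0.004). With other pseudocounts, filters, centring, edgeR or DESeq2 the members' vehicle median stayed between −0.61 and −0.57. Libraries with the same replicate number did not deviate together (mean r = 0.00089 over 12468 genes, range −0.15 to 0.15). With a replicate block, 36 members were lower under vehicle and 34 under TGFβ1, 7 responded in wt-GR and 5 in S134A-GR cells, and CDK8 no longer passed in the latter. Of the called responses, those of HMGB1 in both lines, USPL1, KBTBD7 and RCBTB1 in wt-GR cells and UFM1 and UCHL3 in S134A-GR cells passed in all 23 settings, whereas CDK8 passed in 16, KBTBD7 in S134A-GR cells in 17, NAA16 in 17, MTRF1 in 18, USPL1 in S134A-GR cells in 18 and NBEA in 21.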
